A study of Homo sapiens with 6 samples.

Results

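The 10 genes described here form the entry of the extrinsic apoptosis pathway: the ligand TRAIL (TNFSF10), its 4 membrane receptors TNFRSF10A, TNFRSF10B, TNFRSF10C and TNFRSF10D, the receptor FAS, the adaptor FADD, the initiator caspases CASP8 and CASP10, and their regulator CFLAR. They were taken by name, and each array row whose platform annotation gives exactly 1 of these symbols was included. This gave 39 probe sets for the 10 genes, of 49293 probe sets and 18132 genes on the array. Expression was measured in MDA-MB-231 cells, a human triple-negative breast cancer line of mesenchymal character, on 6 Affymetrix PrimeView arrays. Cells of the SAHA group received vorinostat (SAHA), which inhibits zinc-dependent histone deacetylases, at 5 µM for 8 h, and those of the DMSO group received the solvent alone for 8 h, with 3 arrays per group. One line, 1 dose and 1 time were studied, no death ligand was added per the labels, and the labels do not say that replicates were separate cultures. The p-values therefore rest on a spread between arrays that may be technical.

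In this pathway a trimeric ligand gathers receptors whose cytoplasmic tails carry a death domain. The receptors recruit FADD, and FADD recruits caspase 8 and caspase 10 through death effector domains, so that the caspases cut and activate each other. CFLAR, also called c-FLIP, resembles caspase 8 but has no protease activity of its own; it enters the same complex and holds caspase 8 back. TNFRSF10A (DR4) and TNFRSF10B (DR5) carry a full death domain and transmit the signal, whereas TNFRSF10C (DcR1) has no intracellular death domain and TNFRSF10D (DcR2) has a truncated one, for which they are called decoy receptors. The measurements below are of mRNA, and surface receptor, protein and caspase activity were not measured.

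With SAHA the genes of this complex moved in both directions. TNFRSF10B rose 2.26-fold and the decoy receptor gene TNFRSF10C rose 1.86-fold in its brightest probe set, while TNFRSF10A was 2.23-fold lower. FAS was 2.99-fold lower, CFLAR 3.60-fold lower, FADD 1.55-fold lower and CASP8 1.35-fold lower, each in its brightest probe set. TNFSF10 did not pass the test in any of its 3 probe sets, and CASP10 was dim and passed in 1 of 5. Values are log2 expression values as deposited, and a change is the mean of the SAHA arrays minus that of the DMSO arrays, with limma's moderated standard error (SE). For the 10 genes the adjusted p-values come from limma's test over all 49293 probe sets, with a threshold of 0.05.

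Of the 39 probe sets, 8 rose, 19 fell and 12 did not pass. Among all probe sets on the array 46.4% passed this test, 22.2% higher and 24.1% lower, so passing it was common in these arrays. The share depended on level: of the 16 probe sets with a mean log2 value under 5, 5 passed, where 15.1% of all probe sets at that level did. From 5 to 7, 9 of 10 passed against 46.6% of all, from 7 to 9, 11 of 11 against 73.7%, and above 9, 2 of 2 against 70.9%. Of the 39 probe sets, 9 read CFLAR and 8 read CASP8, and probe sets of the same gene are not independent. The genes were chosen with earlier results of these data known. The 3 SAHA values lay apart from the 3 DMSO values in 28 of the 39 probe sets, against 54.4% of all probe sets. By brightest probe set, 4 of the 10 genes rose and 5 fell, where 48.3% of all genes passed, and the groups lay apart for 9 genes, against 55.5% of all genes.

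**Figure D1:**
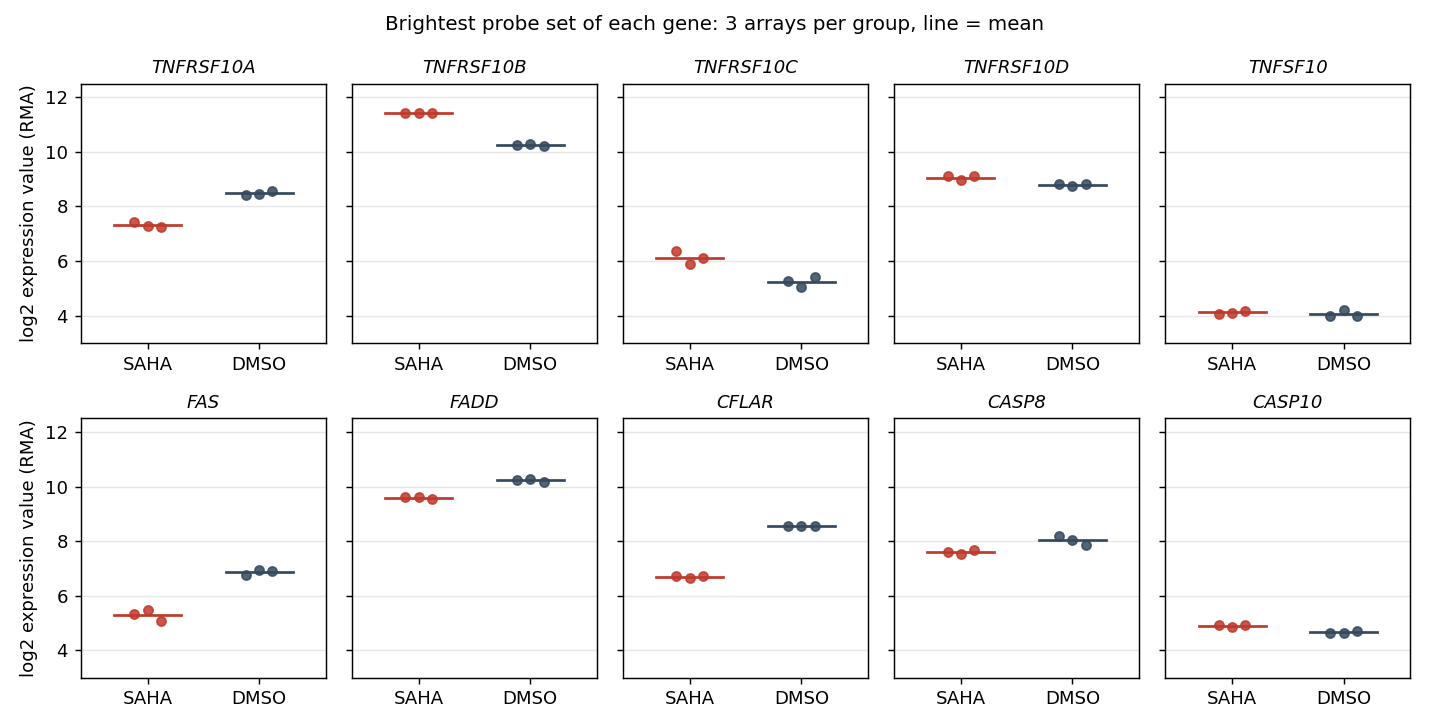
Log2 expression values of the brightest probe set of each of the 10 genes, 1 point per array (3 SAHA, 3 DMSO), with a line at each group mean. The groups are apart for 9 genes and overlap for TNFSF10, and for TNFRSF10B the means are 11.43 in SAHA and 10.25 in DMSO arrays. Heights are not comparable between genes, since each is read by its own probes.

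A few facts of the series bear on these values. Arrays correlated across probe sets at 0.9968 to 0.9979 within a group and at 0.9685 to 0.9696 between groups. CDKN1A, which encodes p21 and is the usual marker of histone deacetylase inhibition, was at 11.63 ± 0.03 in SAHA and 9.72 ± 0.01 in DMSO arrays (SD, n = 3). Of 6 markers listed as kept or high in this line, 1 rose (FN1, by 0.67) and 3 fell (EGFR by 1.87, CD44 by 0.57 and AXL by 0.38). The 2 that did not pass were VIM and SPARC. The mesenchymal marker VIM was at 14.02 in SAHA and 13.96 in DMSO arrays. SPARC was at 5.89 in SAHA and 5.84 in DMSO arrays, so it was not high here. The epithelial cadherin CDH1 was at 4.17 and the progesterone receptor PGR at 3.38 in SAHA arrays, against 4.20 and 3.29 in DMSO arrays. The oestrogen receptor ESR1, a luminal marker, was at 6.01 in SAHA and 5.98 in DMSO arrays, so it was not among the dimmest. Of 7 luminal markers 1 rose (KRT19, by 2.74) and 3 fell (ERBB2, GATA3 and EPCAM, at -0.47, -1.23 and -0.93). In DMSO arrays these were brighter than CDH1, PGR and ESR1, with EPCAM at 8.67, ERBB2 at 7.63, KRT19 at 7.36 and GATA3 at 6.67. Of 4 markers of other cell types 1 fell (CD3E, from a dim probe set). The part of these markers in the results below was not tested. The 23 background control probe sets had a median of 3.26, which is near the dimmest values reported here. They ranged from 2.59 to 10.46, and their mean was 4.50 in SAHA and 4.51 in DMSO arrays, so the median marks no sharp floor. The difference between the 3' and 5' control probe sets of ACTB, which reflects RNA integrity and amplification, was 0.615 ± 0.064 in SAHA and 0.892 ± 0.159 in DMSO arrays (SD, n = 3). A two-sided permutation test, exact over arrays, gave p = 0.1 for it, which is the lowest value possible with 3 arrays per group. The same difference for GAPDH went the other way, at 0.063 ± 0.020 in SAHA and 0.029 ± 0.019 in DMSO arrays (SD, n = 3), also with an exact permutation p = 0.1. Both separate the groups and so move with every result. With the ACTB difference as a covariate, chosen after seeing the data, TNFRSF10A, TNFRSF10B, TNFRSF10C, FAS, FADD and CFLAR still passed, with changes of -1.25, 1.19, 0.90, -1.77, -0.58 and -1.83, and TNFRSF10D, CASP10 and the brightest probe set of CASP8 did not.

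The ligand gene TNFSF10, which encodes TRAIL, was dim in both groups. Its brightest probe set (11743731_a_at) was at 4.07, 4.11 and 4.17 in the SAHA arrays and at 3.98, 4.19 and 3.97 in the DMSO arrays. The groups overlap. The change was 0.07 ± 0.08 (SE), with a 95% interval of -0.11 to 0.25 and an adjusted p = 0.532 in limma's test. The other 2 probe sets were dimmer, with changes of -0.13 and -0.00, and 0 of the 3 passed an unadjusted p of 0.05. After centring the arrays on ribosomal protein genes the gene was at 0.22 and passed (limma's adjusted p = 0.0437 over genes), under a scaling that moves the median of all genes by 0.15.

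The 2 death-domain receptors for TRAIL moved in opposite directions. TNFRSF10B was at 11.43, 11.42 and 11.44 in the SAHA arrays and at 10.24, 10.29 and 10.23 in the DMSO arrays (probe set 11719680_x_at). Every SAHA array was above every DMSO array, and the spread within a group was far smaller than the gap. The rise was 1.18 ± 0.06 (limma's adjusted p = 1.95e-06). The other 2 probe sets of the gene, which lie more than 3 log2 units lower in level, rose by 1.17 ± 0.11 and 1.18 ± 0.07, so the 3 probe sets gave nearly the same change. Of all genes, 4.50% rose by as much as the brightest probe set or more.

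TNFRSF10A, by contrast, fell. Its only probe set (11739654_at) was at 7.44, 7.28 and 7.23 in the SAHA arrays and at 8.41, 8.46 and 8.57 in the DMSO arrays. The groups do not overlap. The change was -1.16 ± 0.08 (limma's adjusted p = 1.01e-05), and 3.14% of all genes fell by as much or more. With 1 probe set the array offers no second reading of this gene.

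The decoy receptor gene TNFRSF10C rose in each of its 3 probe sets. The brightest (11739342_a_at) was at 6.35, 5.91 and 6.13 in the SAHA arrays and at 5.26, 5.04 and 5.41 in the DMSO arrays. The groups are apart, though this probe set spreads more within a group than those of TNFRSF10A and TNFRSF10B. Its rise was 0.89 ± 0.13 (limma's adjusted p = 0.000737). The dimmest probe set was at 4.57, 4.62 and 4.57 in SAHA arrays and at 3.56, 3.58 and 3.63 in DMSO arrays, a rise of 0.996 ± 0.058. The middle one (11760679_at) rose by 0.42 ± 0.11 (limma's adjusted p = 0.0149), a call lost without SAHA replicate 1 (adjusted p = 0.053) or SAHA replicate 2 (adjusted p = 0.0543).

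The other decoy receptor gene, TNFRSF10D, changed little. Its brighter probe set (11723310_at) was at 9.10, 8.97 and 9.10 in the SAHA arrays and at 8.83, 8.76 and 8.80 in the DMSO arrays. The groups do not overlap, and the rise was 0.26 ± 0.06 (limma's adjusted p = 0.0117). The second probe set was at 6.28, 6.44 and 6.41 in SAHA arrays and at 6.30, 6.41 and 6.72 in DMSO arrays, a change of -0.10 ± 0.11 that did not pass. The direction of TNFRSF10D therefore rests on 1 of 2 probe sets.

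FAS, the receptor for FAS ligand, had one of the largest falls of the 10 genes. Its brightest probe set (11725999_s_at) was at 5.33, 5.48 and 5.06 in the SAHA arrays and at 6.77, 6.94 and 6.91 in the DMSO arrays. All 3 SAHA values were more than 1 log2 unit below the DMSO values. The change was -1.58 ± 0.11 (limma's adjusted p = 1.09e-05). The second probe set was at 4.52, 4.43 and 4.66 in SAHA arrays and at 6.16, 6.49 and 6.49 in DMSO arrays, a change of -1.84 ± 0.11. Only 1.19% of all genes fell by as much as the brightest FAS probe set or more, and FASLG, which encodes its ligand, was dim in both groups (4.12 ± 0.12 in SAHA, 4.03 ± 0.16 in DMSO arrays, SD, n = 3).

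FADD, the adaptor that links the receptors to caspase 8, fell in its 2 well expressed probe sets. The brightest (11716800_at) was at 9.64, 9.61 and 9.53 in the SAHA arrays and at 10.24, 10.27 and 10.17 in the DMSO arrays. The groups are apart, and the change was -0.64 ± 0.06 (limma's adjusted p = 7.1e-05). The second probe set fell by 0.76 ± 0.06. The third, near a log2 value of 5, was at -0.21 ± 0.13 and did not pass (limma's adjusted p = 0.239).

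CASP8, the initiator caspase of the pathway, fell in 6 of 8 probe sets. The brightest (11754153_x_at) was at 7.59, 7.54 and 7.66 in the SAHA arrays and at 8.18, 8.06 and 7.85 in the DMSO arrays. The groups are apart by a small margin. Its change of -0.43 ± 0.09 (limma's adjusted p = 0.00492) was the smallest of the 6 that passed. The largest was -0.83 ± 0.07, in a probe set at 5.80, 5.95 and 5.88 in SAHA arrays and at 6.81, 6.64 and 6.68 in DMSO arrays. Scaled to the poly-A spike-ins, the brightest probe set was at -0.25 and no longer passed, while the other 5 still did, at -0.32 to -0.65. The 2 probe sets that did not pass were the dimmest, at -0.22 and -0.11.

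CASP10, the close relative of caspase 8, was dim in both groups. Its brightest probe set (11728056_a_at) was at 4.93, 4.87 and 4.92 in the SAHA arrays and at 4.64, 4.65 and 4.72 in the DMSO arrays. The groups are apart, and the change was 0.24 ± 0.06 (limma's adjusted p = 0.01). The other 4 probe sets gave changes between -0.16 and 0.14, and their groups overlap. The one rise did not pass with trend and robust moderation, or with the mean of the 5 probe sets (0.02).

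CFLAR, the inhibitor of caspase 8, showed the largest fall among the 10 genes by brightest probe set, while by the mean of all probe sets of a gene FAS fell by more. FAS also fell by more with the second brightest probe set (-1.84, against -1.30 for CFLAR). Without the probe sets shared by similar transcripts, which include the brightest of CFLAR, the values were the same. The brightest of its 9 probe sets (11753152_x_at) was at 6.74, 6.66 and 6.71 in the SAHA arrays and at 8.55, 8.54 and 8.56 in the DMSO arrays. The arrays of a group lie within 0.1 log2 units of each other, and the groups are more than 1.8 apart. The change was -1.85 ± 0.06 (limma's adjusted p = 3.75e-07), and 0.69% of all genes fell by as much or more. The next 2 in level fell by 1.30 ± 0.08 and 1.46 ± 0.08. The first of these was at 6.62, 6.52 and 6.75 in SAHA and 8.00, 7.87 and 7.92 in DMSO arrays, and the second at 6.28, 6.19 and 6.14 in SAHA and 7.78, 7.59 and 7.60 in DMSO arrays.

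The size of the CFLAR change depended on the probe set. Of the 6 dimmer probe sets 5 fell, by 0.54 to 0.88, and the dimmest was at -0.10 ± 0.12 and did not pass (limma's adjusted p = 0.549). Across the 9 probe sets the brighter ones had the larger falls, with a Pearson correlation between mean level and change of -0.955. The 9 probe sets were read on the same arrays, so they share all array effects, and the part of level in these differences was not tested. With the mean of the 9 probe sets CFLAR was at -0.91, still past the threshold, where FAS was at -1.71. The transcript forms of CFLAR, long and short, have different ends, and which form each probe set reads was not analysed here.

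**Figure D2:**
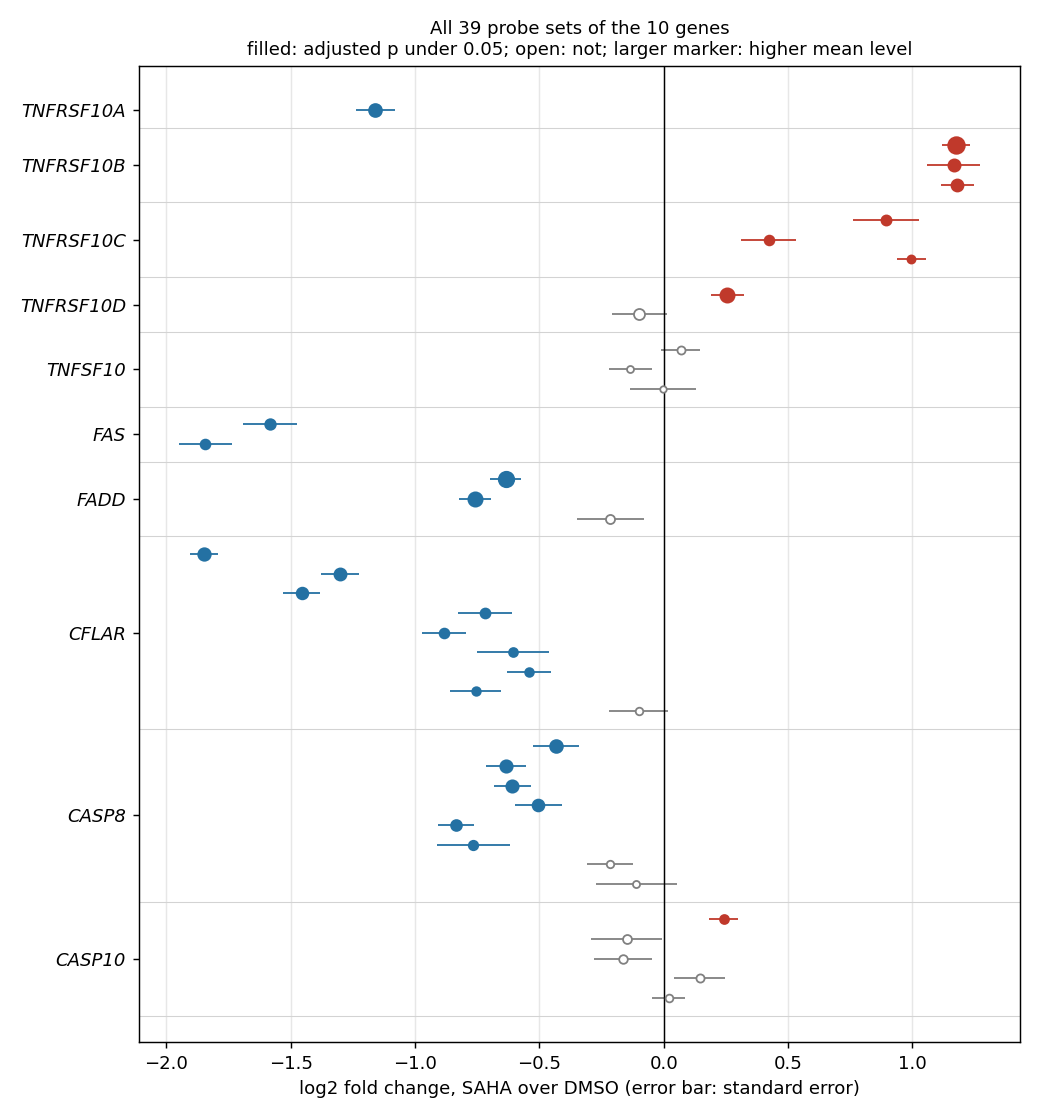
Log2 fold change of SAHA over DMSO for the 39 probe sets of the 10 genes, with the standard error, grouped by gene and ordered by mean level within a gene. Probe sets of TNFRSF10B lie together at 1.17 to 1.18 and those of FAS at -1.58 and -1.84, whereas those of CFLAR spread from -1.85 to -0.10.

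**Figure D3:**
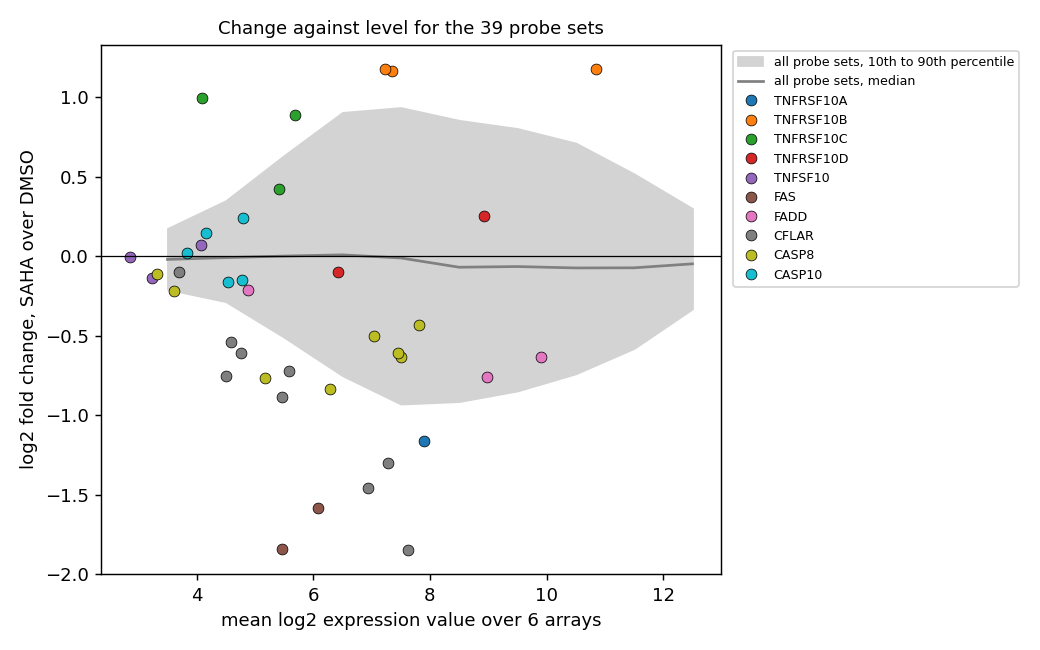
Log2 fold change of SAHA over DMSO (vertical) against the mean log2 value over the 6 arrays (horizontal) for the 39 probe sets, 1 colour per gene, over the 10th to 90th percentile band of all probe sets. The probe sets of TNFRSF10B lie above the band, those of FAS and TNFRSF10A and 8 of 9 of CFLAR below it, and those of FADD inside it.

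Because each gene was read on the same arrays, the change of one can be set against that of another within each array, without comparing their levels. Over 6 such pairs, the difference between TNFRSF10B and TNFRSF10A widened by 2.34 log2 units with SAHA, at 4.11 ± 0.11 in SAHA and 1.78 ± 0.10 in DMSO arrays (SD, n = 3). Between FAS and TNFRSF10B the change was -2.76, and between TNFSF10 and TNFRSF10B it was -1.11. TNFRSF10B rose by 0.92 more than TNFRSF10D. CFLAR fell by more than CASP8: their difference was at -0.89 ± 0.05 in SAHA and 0.52 ± 0.17 in DMSO arrays (SD, n = 3), a change of -1.41. Against CASP10 the change of CFLAR was -2.09. In all 6 pairs the SAHA arrays lay apart from the DMSO arrays. Each had a two-sided exact permutation p = 0.1, the smallest possible with 3 against 3, also after Benjamini-Hochberg adjustment over the 6. This outcome was fixed in advance by the values of the single genes and adds no support to them. For TNFRSF10B with TNFRSF10A, FAS with TNFRSF10B and CFLAR with CASP10, the brightest probe set of each gene had already separated the groups, in opposite directions. In the other pairs the gap of TNFRSF10B or CFLAR between the groups was wider than the whole range of the second gene. Over the 6 arrays TNFRSF10D ran from 8.76 to 9.10, TNFSF10 from 3.97 to 4.19 and CASP8 from 7.54 to 8.18. With the mean of each gene's probe sets the change between CFLAR and CASP8 was -0.40 and that between CFLAR and CASP10 was -0.93, with the same exact permutation p = 0.1.

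The promoters of the 2 genes that fell most by brightest probe set, CFLAR and FAS, are shown for their letters. Only windows with an NF-kB match are printed, so their choice rests on that motif. RefSeq promoter windows were taken from assembly GRCh38.p14, 250 bases before to 50 after a transcript start. They were analysed for 5 of the 10 genes: CFLAR, CASP8, TNFSF10, FAS and FADD. Windows of the TRAIL receptor genes and CASP10 were not analysed, so the motif counts cover no gene that rose by its brightest probe set. The 250 bases before the first listed start of CFLAR (chr2:201118466-201118715, plus strand) and before the second listed start of FAS (chr10:88991181-88991430, plus strand) are given 5′ to 3′, with capitals for matches to the GC box GGGCGG on either strand and to the NF-kB consensus.
CFLAR: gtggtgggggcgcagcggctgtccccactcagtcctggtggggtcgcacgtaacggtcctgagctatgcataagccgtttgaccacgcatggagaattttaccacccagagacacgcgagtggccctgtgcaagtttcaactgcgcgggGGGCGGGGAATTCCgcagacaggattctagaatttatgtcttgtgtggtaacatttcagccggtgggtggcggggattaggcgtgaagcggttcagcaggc
FAS: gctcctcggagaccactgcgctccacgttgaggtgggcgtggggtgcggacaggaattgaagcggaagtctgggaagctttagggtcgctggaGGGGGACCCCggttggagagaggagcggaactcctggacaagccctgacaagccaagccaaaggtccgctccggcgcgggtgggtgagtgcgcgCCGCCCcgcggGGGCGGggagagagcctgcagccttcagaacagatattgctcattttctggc
In the CFLAR window the GC box and the NF-kB match overlap, and in the FAS window they are apart. Of all 35116 windows, 45% hold a GC box and 5.9% an NF-kB match on either strand. Among the windows of the 5 genes, 4 for CFLAR, 3 each for CASP8 and FAS and 1 each for TNFSF10 and FADD, these 2 were the only ones with an NF-kB match. GC boxes were in some windows of a gene and not in others: windows 1 and 4 of CFLAR hold 1 and 2, and windows 2 and 3 hold 0. CASP8 has 1 in its first window and 0 in the others, each FAS window and the FADD window hold 1 or 2, and the TNFSF10 window holds 0. The letters TATAAA are in the TNFSF10 window and in the second CASP8 window, as in 11.5% of all windows. The AP-1 letters TGANTCA are in more of these windows than the NF-kB match is. They lie in window 3 of CFLAR, windows 2 and 3 of CASP8, window 1 of FAS and the FADD window, where 7.7% of all windows hold them. A match is only a run of letters, and binding was not measured.

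The genes whose values over the 6 arrays correlated best with those of CFLAR were EMG1, NAA25 and NFKB1, each with a Pearson correlation of 0.9999 and changes of -1.76, -1.12 and -2.17. For TNFRSF10A they were MRPS2, MOCOS and THADA (-0.88, -1.26 and -0.44), and for TNFRSF10B they were TRAFD1, IFNGR1 and IFT88 (1.26, 0.80 and 1.47). With 2 groups of 3 arrays this measure mostly follows the group difference, and 1297 genes correlated with CFLAR at more than 0.99.

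The 4 TRAIL receptor genes lie side by side on chromosome 8, and CFLAR, CASP10 and CASP8 side by side on chromosome 2, by the gene order of RefSeq assembly GRCh38.p14. Their changes were not shared along either cluster. On chromosome 8 the order was TNFRSF10B, TNFRSF10C, TNFRSF10D and TNFRSF10A, with changes of 1.18, 0.89, 0.26 and -1.16. Beside TNFRSF10B, RHOBTB2 and PEBP4 did not pass (0.05 each) and EGR3 rose by 0.18 ± 0.06. Beside TNFRSF10A, CHMP7 was at -0.07 ± 0.06 and LOXL2 at -0.15 ± 0.05, neither past the threshold, and R3HCC1 rose by 0.70 ± 0.05 (SE, limma's test over genes). On chromosome 2, CFLAR, CASP10 and CASP8 stood at -1.85, 0.24 and -0.43. Beside CFLAR, NDUFB3, a subunit of mitochondrial complex I, rose by 0.38 ± 0.05, HYCC2 rose by 1.59 ± 0.10 and ORC2, of the origin recognition complex, fell by 0.51 ± 0.06. Beside CASP8, FLACC1 was at 0.15 ± 0.10 and did not pass, TRAK2, a mitochondrial transport adaptor, rose by 1.06 ± 0.06 and STRADB rose by 0.22 ± 0.08.

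**Figure D4:**
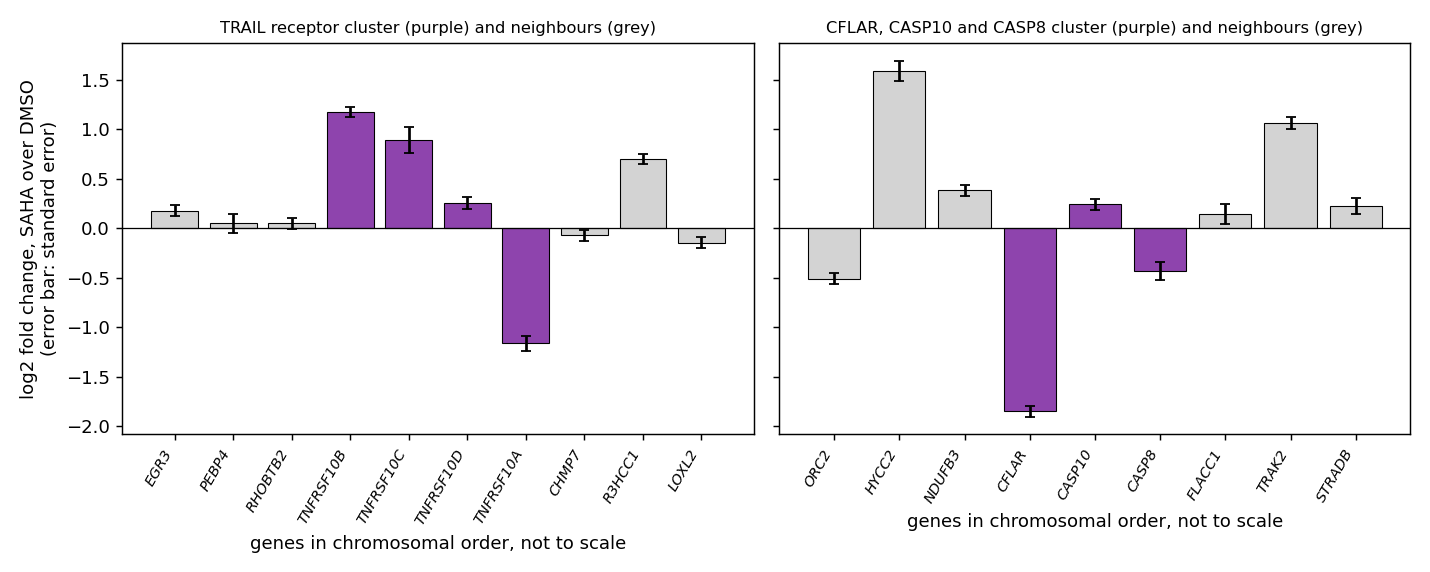
Log2 fold change of SAHA over DMSO with standard error for the brightest probe set of each gene, in chromosomal order, for the TRAIL receptor cluster (left) and the CFLAR, CASP10 and CASP8 cluster (right), with the 3 nearest measured genes on either side in grey. TNFRSF10B at 1.18 and TNFRSF10A at -1.16 stand at opposite ends of one cluster, and CFLAR at -1.85 has NDUFB3 at 0.38 and CASP10 at 0.24 beside it.

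The rest of the pathway also moved in both directions. Of 86 listed genes 78 were measured, and 23 rose, 27 fell and 28 did not pass in limma's test over 18132 genes, where 24.6% of all genes rose and 23.8% fell. Their median change was -0.02, beside -0.01 for all genes. Centred on ribosomal protein genes, 32 rose and 24 fell, and centred on poly-A spike-ins, 25 rose and 19 fell. These scalings move the median of all genes by 0.15 and 0.18. The values that follow are of the brightest probe set of a gene, with limma's SE and n = 3 arrays per group.

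Of 12 other receptors and ligands of the TNF family, not all of them with a death domain, 1 rose and 3 fell (median -0.01). TNFRSF12A, the receptor for TWEAK, fell by 0.90 ± 0.08, TNFRSF1A, the main TNF receptor, by 0.51 ± 0.06 and TNFRSF21 (DR6) by 0.43 ± 0.07. The call of TNFRSF1A was lost without the probe sets shared by similar transcripts (-0.06), and that of TNFRSF21 after centring on poly-A spike-ins (-0.25). NGFR, the low-affinity neurotrophin receptor, was dim and rose by 0.28 ± 0.08, a call lost when any of 4 of the 6 arrays was left out, which were DMSO replicates 1 and 3 and SAHA replicates 1 and 2 (limma's adjusted p of 0.0784, 0.0855, 0.0636 and 0.0905). Of the soluble decoys for these ligands TNFRSF11B, or osteoprotegerin, which binds TRAIL and RANKL, was measured and fell by 0.68 ± 0.08.

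Of 12 adaptors and proteins with death or death effector domains, 4 rose and 5 fell (median -0.12). TRAF3, an adaptor and ubiquitin ligase subunit of TNF receptors, fell by 1.49 ± 0.08, DAXX, first described as a FAS-binding protein and now known as a histone H3.3 chaperone, by 0.90 ± 0.06 and DEDD by 0.74 ± 0.06. CRADD, which links death domains to caspase 2, rose by 1.07 ± 0.08. Of 11 enzymes acting on the stability of CFLAR, caspase 8 or RIPK1, 4 rose and 4 fell (median -0.12). BIRC2, which encodes the ubiquitin ligase cIAP1, fell by 0.78 ± 0.06, CUL3, the scaffold of a ligase that modifies caspase 8, by 0.41 ± 0.05 and its partner RBX1 by 0.54 ± 0.06. CYLD, a deubiquitinase that acts on RIPK1, rose by 0.56 ± 0.07, and by 0.85 with its second brightest probe set. The call of CUL3 was lost after centring on poly-A spike-ins (-0.23), where RBX1 still passed at -0.36.

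Of 13 genes downstream of caspase 8, 5 rose and 4 fell (median -0.02). BID, the BH3-only protein that caspase 8 cuts, was at 8.43 ± 0.05 in SAHA and 9.56 ± 0.08 in DMSO arrays (SD, n = 3), and fell by 1.13 ± 0.06 (SE). XIAP, an inhibitor of caspases, fell by 0.76 ± 0.05. CASP9, the initiator caspase of the mitochondrial arm, rose by 1.27 ± 0.07 and BAK1, a pore-forming BCL2 relative, by 0.70 ± 0.05. With the second brightest probe sets these rises were 0.84 and 0.37, both past the threshold. Of the 4 genes of necroptosis, the death pathway that caspase 8 restrains, 2 fell and 0 rose (median -0.49). MLKL, its executioner, was at 7.63 ± 0.08 in SAHA and 9.71 ± 0.06 in DMSO arrays (SD, n = 3), and fell by 2.08 ± 0.06 (SE, limma's adjusted p = 3.26e-07) in its only probe set. PGAM5 fell by 0.77 ± 0.06, RIPK3, the kinase above MLKL, was dim and at 0.02 ± 0.10, and ZBP1 was at -0.20 ± 0.09. ZBP1 did not pass, but it did without DMSO replicate 2 (-0.27), with the mean of its probe sets (-0.23) and with the second brightest (-0.27).

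Of 10 genes for glycosylation and membrane handling of death receptors 2 rose and 2 fell (median -0.02). GALNT3 and GALNT14, which start O-linked glycan chains, fell by 1.598 ± 0.096 and 0.70 ± 0.08, and GALNT14 was at -1.24 with its second brightest probe set. EZR, a linker between membrane and actin, rose by 0.67 ± 0.06 and AP2A1, of the clathrin adaptor, by 0.36 ± 0.09, a call lost in 4 of 18 alternative settings, among them its second brightest probe set (0.25). Of 15 transcription factors known from other cells to act on genes of this set, 7 rose and 6 fell (median 0.05). FOXO1, a forkhead factor, was at 8.46 ± 0.08 in SAHA and 6.07 ± 0.08 in DMSO arrays (SD, n = 3), a rise of 2.40 ± 0.07 (SE), which was 1.30 with the mean of its probe sets. NFKB1, the gene of an NF-kB subunit, was at 7.77 ± 0.03 in SAHA and 9.95 ± 0.01 in DMSO arrays (SD, n = 3). It fell by 2.17 ± 0.05 (SE). The NF-kB subunit genes did not move together, as RELA was at 0.01 ± 0.05 and did not pass and REL rose by 0.54 ± 0.07. CEBPB rose by 0.74 ± 0.09 and ATF4, of the stress response, fell by 0.41 ± 0.05, a call lost after centring on poly-A spike-ins (-0.23).

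**Figure D5:**
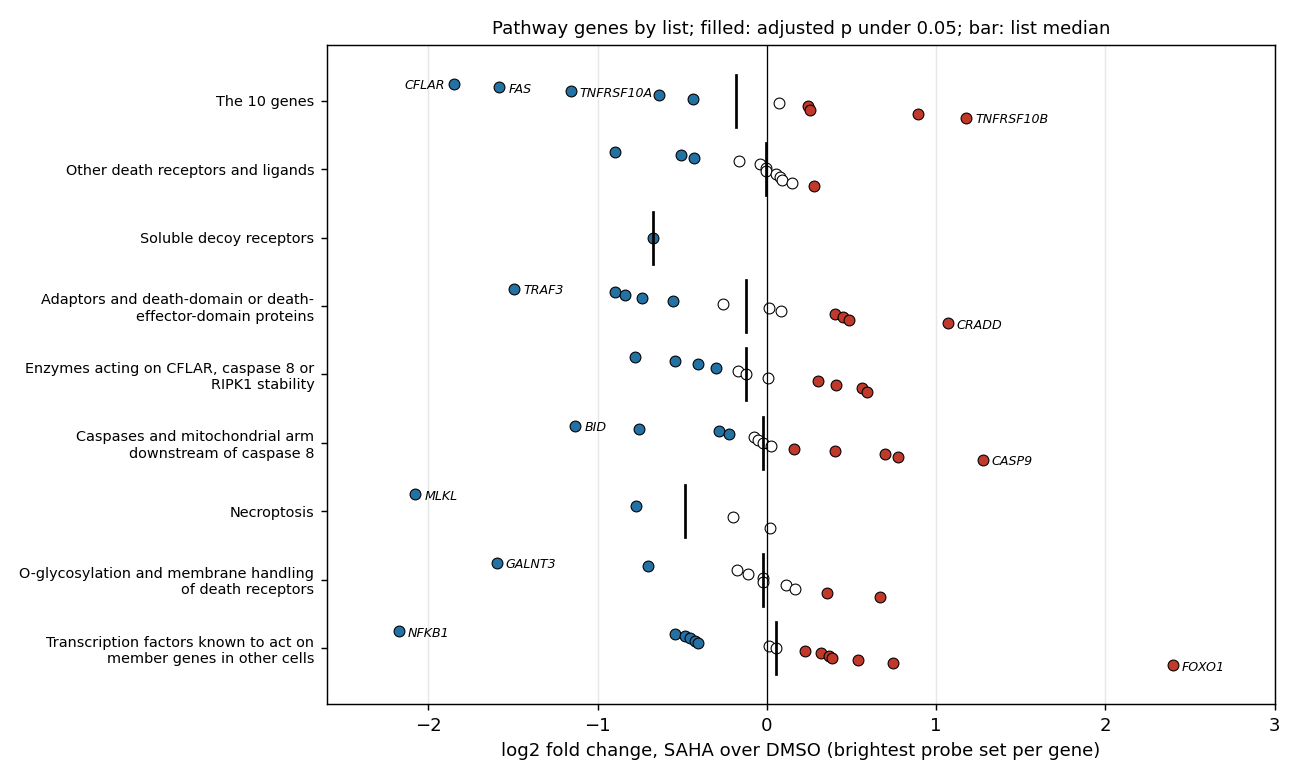
Log2 fold change of SAHA over DMSO for the 10 genes (top) and for the 78 measured genes of the 8 pathway lists, 1 point per gene by its brightest probe set, filled where the adjusted p was under 0.05, with a bar at each median. The medians of the lists lie between -0.68 and 0.05, and in each list of more than 4 genes some members rose and others fell.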

How the data were processed

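Per the labels' protocols, total RNA was amplified and biotin-labelled with a 3' in vitro transcription kit, from MDA-MB-231 cells, for 6 PrimeView arrays. The authors deposited 1 log2 value per probe set and array. RMA (background correction, quantile normalization, median polish) is named in the submitters' processing notes, and the software used for it is not given in the sources used here. Quantile normalization can hide a common shift of most transcripts, and values near the floor understate a fold change. The precision of each value is limited by 3 arrays per group.

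The 102 array controls were left out of tests. Of the other probe sets, 44988 name 1 gene, 1832 several and 2473 none in the platform annotation, checked against RefSeq identifiers (0 symbols changed). The test was that of limma 3.58.1, run in R 4.3.3 (lmFit, eBayes, two-sided, Benjamini-Hochberg, threshold 0.05), over all probe sets for the 10 genes and, for pathway and neighbouring genes, over 18132 genes by their brightest probe set that names only that gene. It was first tried on simulated data. Pairs of genes were compared by exact permutation tests over arrays. Figures used matplotlib 3.10.9.

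The 10 genes, the pathway lists and the marker lists were chosen with earlier results of these data known. Named are all 10 genes, the 4 genes of each list with the smallest p, and the 3 genes most correlated with CFLAR, TNFRSF10A and TNFRSF10B. Also named are the 3 nearest measured genes on either side of each cluster, and markers. FASLG, RELA and REL were named after their values were seen. Of the 86 listed pathway genes, 8 were not analysed here. Alternative settings were a block for the replicate number, trend and robust moderation, level filters at 5 and 7, repeated quantile normalization, centring on 71 ribosomal protein genes or 12 poly-A controls, other choices of probe sets, a threshold of 0.01, leaving out each array, and the ACTB difference as a covariate. No shared deviation was seen between same-numbered arrays, whose deviations correlated at -0.10, -0.08 and -0.03. These values cannot show whether same-numbered samples were prepared together.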

Additional observations from a re-analysis of the deposited data

Results flagged for a closer look

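Besides the 39 probe sets, 2 probe sets name TNFRSF10C together with LOC254896 and were left out of the counts, since their signal cannot be given to 1 gene. These data, which no comparison above uses, were higher with SAHA. The first was at 5.28, 5.19 and 5.39 in SAHA and at 4.44, 4.56 and 5.02 in DMSO arrays, a log2 fold change of 0.61 (limma's adjusted p = 0.0086 over probe sets). The second was at 5.50, 5.91 and 5.79 in SAHA and at 4.91, 5.09 and 5.35 in DMSO arrays, a log2 fold change of 0.62 (limma's adjusted p = 0.00658). The 3 probe sets that name TNFRSF10C alone also rose.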

How the results depend on the processing

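The calls of TNFRSF10A, TNFRSF10B, TNFRSF10C, FAS, FADD and CFLAR kept their direction and stayed past the threshold in every setting run that measured them (17 or 18 each), with CFLAR between -1.87 and -0.91 and TNFRSF10C between 0.42 and 1.07. The other 4 genes depended on the setting. TNFRSF10D was at 0.079 with the mean of its probe sets, -0.10 with the second brightest and 0.32 with the ACTB covariate, none past the threshold. CASP10 was at 0.24 with trend and robust moderation, 0.0188 with the mean, -0.15 with the second brightest and 0.20 with the ACTB covariate, none past it. CASP8 was at -0.25 centred on poly-A spike-ins and -0.16 with the ACTB covariate, neither past it, and TNFSF10 was at 0.22 and past it centred on ribosomal protein genes. Of the 39 probe sets, 8 rose and 19 fell; with a mean log2 value of at least 7 these were 4 and 9, as fewer probe sets are tested. At a threshold of 0.01, 5 rose, and with the ACTB covariate 5 rose. Without probe sets shared by similar transcripts (_x_at and _s_at), 9 fell, since the other falling probe sets were of these types and were removed. The count of 4 genes that rose was 2 at a level of at least 7, where TNFRSF10C and CASP10 were not tested. It was also 2 with the mean of probe sets, the second brightest and the ACTB covariate, where TNFRSF10D and CASP10 did not pass. With the ACTB covariate 13 genes of the pathway lists rose, against 23 without it. The cause of that drop was not tested. Leaving out each array gave 7 to 8 rises and 19 falls among probe sets and 20 to 21 rises and 27 to 28 falls in the pathway lists. With the replicate number as a block, 8 probe sets rose and 19 fell, and it changed no call of the 10 genes. Dim probe sets limit TNFSF10 and CASP10.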
